A study of Mus musculus with 20 samples.

Results

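Enhancer transcription in macrophages exposed to interferon gamma (IFN-γ) alone was compared between 2 phases of the response, an early one at 3 h and a late one at 9 and 15 h. The 6 libraries concerned, 2 at 3 h, 2 at 9 h and 2 at 15 h, were chosen by their labels for stimulus and time, out of 20 in the series. All cells were bone marrow-derived macrophages of C57BL/6 mice, differentiated with M-CSF from conditioned medium. The other 14 libraries were 2 of unstimulated cells at 0 h and 2 at each of 3, 9 and 15 h for CpG DNA alone and for IFN-γ plus CpG. The series calls the 2 libraries of a group biological replicates. Whether they came from separate mice or cultures is not stated, so p-values measure the spread between these libraries, which may be technical. The protocols also mention polarization with IL-4 and IL-10 and a stimulation of another length than the times of the samples, and do not state whether either applies to these cells.

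IFN-γ is a cytokine that activates macrophages, and its response unfolds in waves, since the genes switched on early include some for further transcription factors, among them IRF1. Feedback inhibitors such as SOCS1 dampen the receptor signal as the response goes on. Active enhancers are transcribed in both directions into short-lived capped RNAs, and the number of capped 5' ends at an enhancer is a reading of that transcription. Such 5' ends were read here with nAnT-iCAGE, an amplification-free variant of cap analysis gene expression (CAGE). The data hold 11222 enhancers, given as chromosome, start and end on mm39. Genes near them were not assigned, because the annotation at hand is of an older build, and for the same reason the macrophage label could not be checked against marker genes.

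Library totals ranged from 12997634 to 13855472 tags over the 6 libraries, and 12879 to 24689 tags per library fell in enhancers. Enhancers took 0.132% and 0.0991% of the library at 3 h, 0.128% and 0.179% at 9 h, and 0.125% and 0.133% at 15 h. The second 3 h library was the lowest and the second 9 h library the highest of the 6. The late libraries averaged 0.141% ± 0.0256 (SD, n = 4) and the early ones 0.115% ± 0.0229 (SD, n = 2), a difference of 0.026 percentage points (exact two-sided permutation test, p = 0.467, smallest possible p 0.0667). Because the share of enhancers differs between libraries, a change can be read relative to the other enhancers (TMM scaling, used here) or relative to the whole library, which moved the median over the 2792 tested enhancers from 0.00 to 0.15 on the log2 scale. In bulk RNA, fewer cells using an enhancer and less RNA per cell cannot be told apart. Unstimulated cells were sampled at 0 h and not alongside the later times, so effects of IFN-γ over time and of time in culture cannot be told apart either.

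Between 3 h and the later times of IFN-γ alone, few enhancers were called changed. Of 2792 enhancers with enough tags to be tested, 52 (1.86%) differed between the late and the early libraries by edgeR's quasi-likelihood test at a Benjamini-Hochberg adjusted p under 0.05. Of these, 36 (1.29%) were lower late and 16 (0.573%) were higher late. At an unadjusted edgeR p under 0.05 there were 440. Since 1770 of the tested enhancers had a mean under 5 tags at 3 h and late, smaller changes could be missed. The falls reached from a 1.78-fold to a 33.1-fold ratio of levels, with a median of 4.71, and the rises with a tag at 3 h from 3.65-fold to 16.9-fold, with a median of 5.87. In 45 of the 52 the 4 late libraries lay beyond both early ones in RPM (tags relative to all tags of the library, scaled to a common total), as they did in 22.1% of all tested enhancers (12.5% higher late, 9.63% lower). Called enhancers had a median of 5.83 tags per IFN-γ library against 3 over all tested enhancers.

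How many enhancers were called, and the balance of rises and falls, depended on the scaling, the tool and on single libraries. With whole-library totals 47 were called, 23 higher and 24 lower, so that rises made up 48.9% of the calls in place of 30.8%; limma on log2(RPM + 0.5) called 142, with 105 higher and 37 lower. DESeq2 called 4, all lower late. With a library left out and the same 2792 enhancers tested, 9 and 18 of the 52 calls remained without the first or second 3 h library, 38 and 28 without the first or second 9 h library, and 31 and 30 without the first or second 15 h library. All 52 kept their direction under each of the 14 to 16 other settings that gave them a value. Since these settings reuse the libraries by which the 52 were chosen, a reversal was unlikely from the start. The 4 falls that DESeq2 called, described first below, were also the 4 called in all 6 of these fits, which were added after the data were seen; each of the other 48 calls was lost without at least 1 of the 6 libraries. With the filter on low counts rerun for each fit, which let 4136 to 4238 enhancers through, none of the 52 was called in all 6: the 4 falls were lost without the first 3 h library (adjusted p = 0.0809 to 0.0827), and chr11:93885822-93886275 also without the second.

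**Figure D1:**
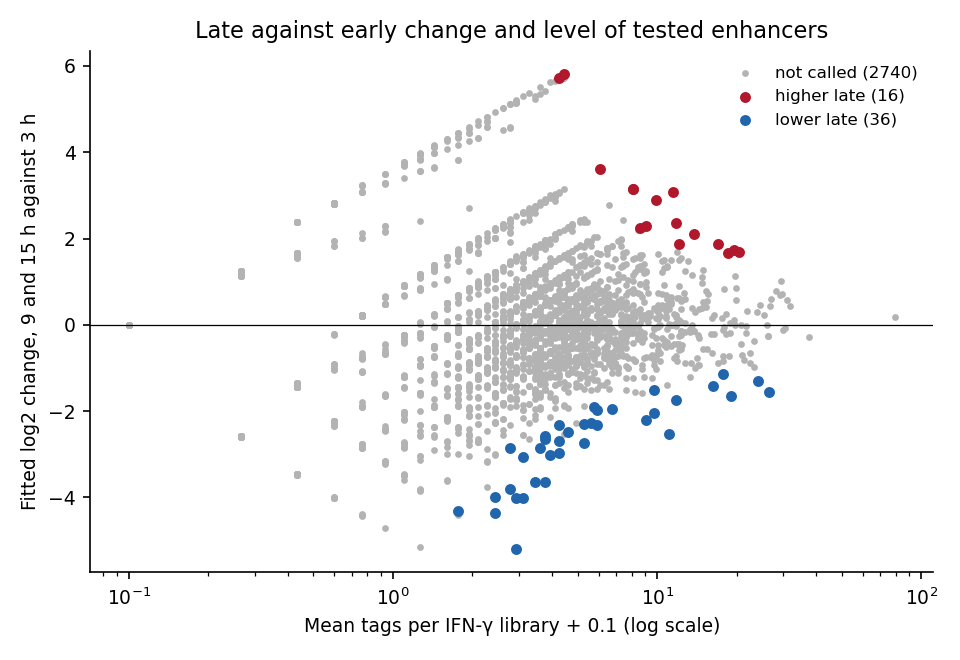
Fitted log2 change from 3 h to 9 and 15 h of IFN-γ (vertical) against the mean tags per IFN-γ library plus 0.1 (horizontal, log scale) for the 2792 tested enhancers. The 16 rises (red) and 36 falls (blue) lie at the outer edge of the cloud, and the rows of points at low tag numbers are enhancers with few whole tags.

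Enhancers present in unstimulated cells and those induced by 3 h were both among the falls. In 17 of the 36 falls both unstimulated libraries lay below both 3 h libraries, in 15 they overlapped them and in 4 they lay above them. Seen from the late side, both unstimulated libraries lay above all 4 late ones in 18 falls, overlapped them in 15 and lay below them in 3. Among the 16 rises, both unstimulated libraries lay above both 3 h libraries in 8, overlapped them in 4 and lay below them in 4, and they lay below all 4 late libraries in 12. The enhancers were chosen for a 3 h level that stands apart from the late one, so these counts describe the members and test nothing. The matching shares over all tested enhancers were not computed, so no excess or lack can be read from the counts.

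**Figure D2:**
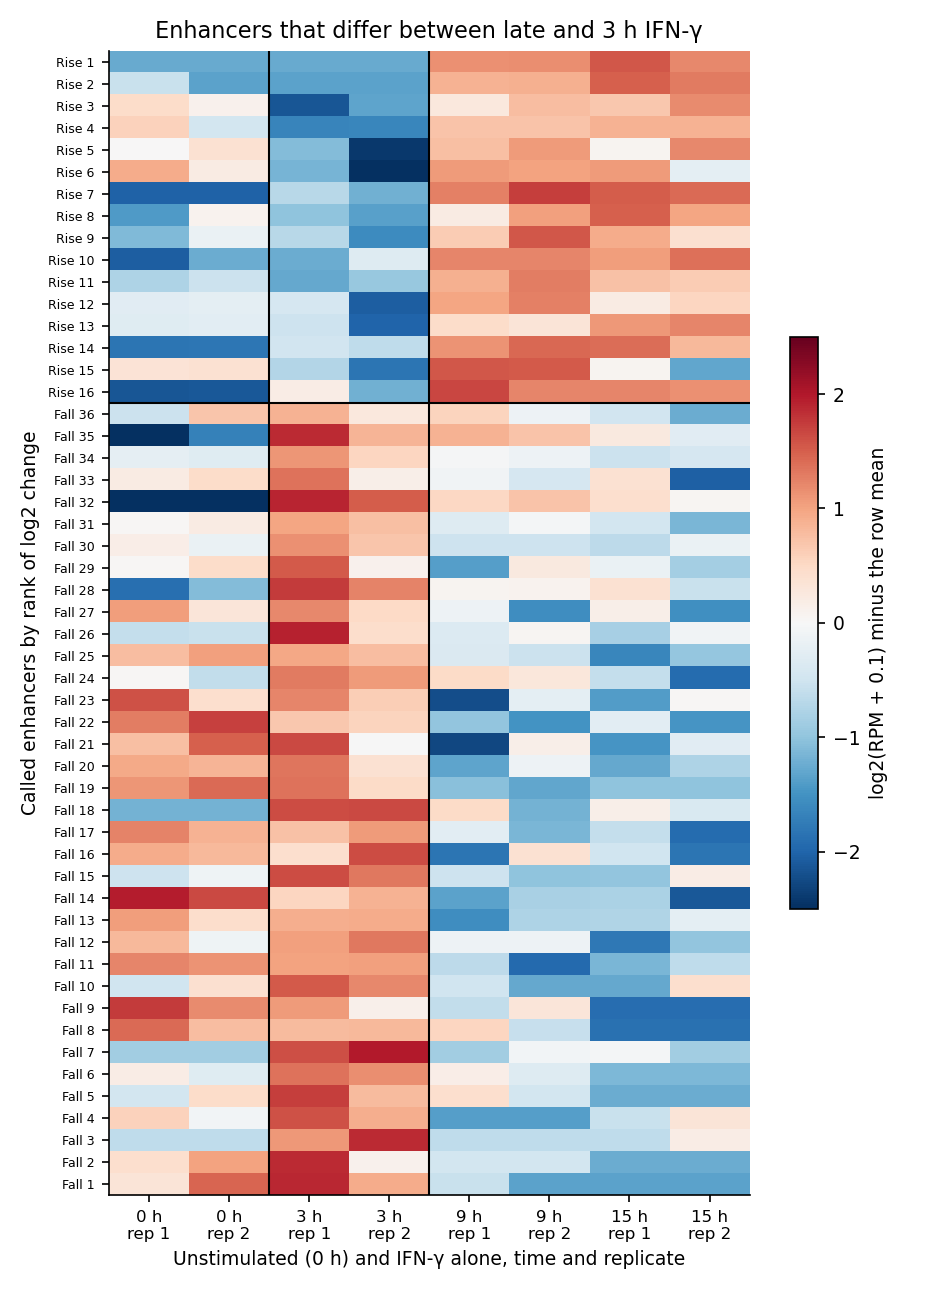
Level of each called enhancer (rows, ranked by fitted log2 change, 16 rises above the line and 36 falls below it) in the 2 unstimulated and 6 IFN-γ libraries, as log2(RPM + 0.1) minus the row mean. Several falls are blue in the unstimulated columns and red only at 3 h, others are red in both, and 8 of the rises are lower at 3 h than in unstimulated cells.

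The clearest loss was at chr13:49343340-49343837 (fall 19 by rank of fitted change). It and the other 3 of these falls were singled out after their values were seen. The enhancer held 27 and 33 tags in the unstimulated libraries, 31 and 16 at 3 h, 5 and 4 at 9 h and 5 and 5 at 15 h. It thus stayed near its starting level early and was low in all 4 late libraries. The fall was -2.52 ± 0.41 on the log2 scale (SE; edgeR adjusted p = 1.66e-06; DESeq2 adjusted p = 4.89e-04). At chr11:93885822-93886275 (fall 25) 17 and 20 tags in unstimulated cells and 19 and 16 at 3 h stood against 7 and 6 at 9 h and 2 and 4 at 15 h. The level at 3 h overlapped that before stimulation, and the late libraries held less than both (log2 change -2.21 ± 0.46, edgeR adjusted p = 7.87e-04; DESeq2 adjusted p = 0.0409).

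The other falls of these 4 started from a peak at 3 h. Enhancer chr1:176651455-176651913 (fall 32) held 1 tag in each unstimulated library, 50 and 37 at 3 h, 19 and 22 at 9 h and 17 and 13 at 15 h. It fell by 1.55 ± 0.29 on the log2 scale (edgeR adjusted p = 9.21e-05; DESeq2 adjusted p = 0.00951) and remained far above its starting level: 1.13 ± 0.221 RPM at 15 h against 0.0734 ± 0.00149 in unstimulated cells (SD, n = 2 each). At chr1:58766221-58766761 (fall 31) the tags went from 18 and 20 to 35 and 29 at 3 h, and then to 14 and 17 at 9 h and 12 and 7 at 15 h. Here the late libraries ended below the unstimulated ones (log2 change from 3 h -1.64 ± 0.32, edgeR adjusted p = 3.03e-04; DESeq2 adjusted p = 0.00951). By the test, however, the late level did not differ from the unstimulated one (log2 change -0.40 ± 0.36, edgeR adjusted p = 0.439).

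Further falls had more tags at 3 h than before it. Those given here without a rank in the rule for named enhancers were chosen after their values were seen. Enhancer chr5:121537641-121537963 (fall 35) held 1 and 3 tags in unstimulated cells, 49 and 23 at 3 h, 25 and 22 at 9 h and 15 and 10 at 15 h (log2 change -1.30 ± 0.30, edgeR adjusted p = 0.00405). The lower 3 h library lay within the range of the 9 h ones, so the groups overlapped. At chr10:12839072-12839363 (fall 26) the counts were 4 and 4, 28 and 9, 5 and 7, and 3 and 6, so that the late level was back near the unstimulated one (log2 change -2.05 ± 0.44, edgeR adjusted p = 0.00122). Enhancer chr6:29998723-29998989 (fall 7) had no tag in unstimulated cells, 6 and 8 at 3 h, and 2 tags over the 4 late libraries. That is a 14.5-fold lower late level (95% counting interval 3.32 to 131; edgeR adjusted p = 0.024). Enhancers chr4:62183758-62184020 (fall 18) and chr16:8485222-8485415 (fall 3) were likewise without a tag before stimulation, with 8 and 8 and 3 and 6 tags at 3 h, and 6 and 1 tags over the 4 late libraries. The call at chr4:62183758-62184020 was lost with whole-library totals (edgeR adjusted p = 0.0523).

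A pair of falls with the same course lay side by side on chromosome 4, with centres 1250 bases apart. The enhancer chr4:128622211-128622725 (fall 28) held 0 and 1 tags in unstimulated cells, 15 and 10 at 3 h, 4 and 4 at 9 h and 5 and 2 at 15 h. Its neighbour chr4:128623612-128623824 (fall 24) held 4 and 2, then 11 and 9, 6 and 5, and 2 and 0. Both thus peaked at 3 h, and the late libraries lay below the early ones at both (edgeR adjusted p = 0.0315 and 0.0257). Neither call was made by DESeq2, with adjusted p = 0.288 and 0.214. Both were also lost with whole-library totals (edgeR adjusted p = 0.104 and 0.0817).

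The steepest fitted falls were at weak enhancers, where the late libraries held a few tags or none. A fitted log2 change against 0 tags depends on the prior count, so ratios of levels are given for these. At chr12:17557060-17557661 (fall 1) 3 and 8 tags in unstimulated cells and 11 and 5 at 3 h stood against 1 tag over the 4 late libraries, a 33.1-fold lower level (95% counting interval 5.14 to 1387; edgeR adjusted p = 6.02e-04). At chr12:85579654-85580235 (fall 2) 10 and 2 tags at 3 h stood against 1 and 1 at 9 h and none at 15 h, 12.4-fold lower (95% counting interval 2.76 to 114; edgeR adjusted p = 0.00722). Both enhancers had few tags in any library, which the width of these intervals shows. At chrX:166109198-166109515 (fall 6) 6 and 5 tags at 3 h stood against 2 and 1 at 9 h and none at 15 h, 7.58-fold lower (95% counting interval 2 to 42.3; edgeR adjusted p = 0.0315).

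Among the weak falls, some were lowest at 15 h and others already at 9 h. Enhancer chr16:92195695-92195978 (fall 8) held 7 and 7 tags at 3 h, 6 and 2 at 9 h and none at 15 h, and chr6:47721078-47721527 (fall 5) 9 and 4, 3 and 1, and none. The opposite order was seen at chr12:111408030-111408436 (fall 4), with 9 and 5 tags at 3 h, none at 9 h, and 1 and 3 at 15 h. Enhancer chr4:43472968-43473511 (fall 10) held 8 and 6 tags at 3 h, 1 and 0 at 9 h and 0 and 3 at 15 h. None of these 4 differed between 15 and 9 h (edgeR adjusted p from 0.598 to 0.909).

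Other falls named by rank were transcribed before stimulation and held fewer tags late than at 3 h. The enhancer chr17:10940208-10940726 (fall 14) held 22 and 17 tags in unstimulated cells, 7 and 9 at 3 h, 1 and 2 at 9 h and 2 and 0 at 15 h (log2 change from 3 h -2.85 ± 0.72, edgeR adjusted p = 0.00925). Enhancer chr6:123242860-123243294 (fall 11) held 11 and 10 tags at the start and 9 and 9 at 3 h, and then 2 and 0 at 9 h and 1 and 2 at 15 h (log2 change -3.01 ± 0.68, edgeR adjusted p = 0.00306). Its early and late libraries were thus well apart, while unstimulated and 3 h levels were close, at 0.77 ± 0.0363 and 0.686 ± 0.00864 RPM (SD, n = 2 each). Enhancer chr16:92664056-92664829 (fall 13) held 7 and 4 tags in unstimulated cells and 6 and 6 at 3 h against 4 over the late libraries, and chr2:34852947-34853396 (fall 12) 7 and 3 and 8 and 10 against 7 over the late libraries. Their edgeR adjusted p-values were 0.0456 and 0.00474. The call at chr16:92664056-92664829 was lost with whole-library totals (edgeR adjusted p = 0.0941) and with DESeq2 (adjusted p = 0.248). It was also lost whichever of the 6 IFN-γ libraries was left out. At chr2:34852947-34853396 the late level did not differ from the unstimulated one by the test (log2 change -1.65 ± 0.82, edgeR adjusted p = 0.125).

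Among the rises were enhancers with fewer tags at 3 h than in unstimulated cells. One was chr11:102319827-102320230 (rise 6), with 18 and 10 tags in unstimulated cells, 3 and 0 at 3 h, 20 and 19 at 9 h and 19 and 7 at 15 h. Both 3 h libraries lay below all others (3 h against unstimulated: edgeR adjusted p = 0.00777), and the late libraries overlapped the unstimulated ones. The late level was 10.5-fold above that at 3 h (95% counting interval 3.43 to 52.2), a log2 change of 3.08 ± 0.65 (edgeR adjusted p = 0.00114). It was not called without the second 3 h library, in which the enhancer has 0 tags, nor by DESeq2 (adjusted p = 0.0701). Enhancer chr16:55619214-55619609 (rise 5) held 6 and 8, then 2 and 0, 11 and 14, and 6 and 15 (edgeR adjusted p = 0.00514, and 0.0971 for 3 h against unstimulated). The p-values for 3 h against unstimulated, here and for the rises below, reuse the 3 h libraries by which the rises were chosen. They therefore lean toward a dip at 3 h and are descriptive only.

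In other rises both 3 h libraries also lay below both unstimulated ones, without a difference that passed the test. Enhancer chr2:33320066-33320430 (rise 3) held 7 and 5 tags in unstimulated cells, 0 and 1 at 3 h, 6 and 9 at 9 h and 8 and 12 at 15 h. At chr4:135912762-135913073 (rise 4) the counts were 10 and 4, 1 and 1, 11 and 11, and 12 and 12, so that all 4 late libraries stood above both unstimulated ones. By the test, its late level did not differ from the unstimulated one (log2 change 0.96 ± 0.54, edgeR adjusted p = 0.184). The late levels were 16.9-fold (95% counting interval 2.85 to 688) and 11.1-fold (2.91 to 94.6) above those at 3 h, with edgeR adjusted p = 0.0173 and 0.017. For 3 h against unstimulated the edgeR adjusted p-values were 0.0874 and 0.143. Enhancers chr15:94463842-94464109 (rise 11) and chr10:60115719-60116162 (rise 12) went from 5 and 6 and 7 and 7 tags in unstimulated cells to 3 and 4 and 6 and 1 at 3 h, and were above their starting level at 9 h, at 19 and 25 and 19 and 23 tags. In chr15:94463842-94464109 the rise from 3 h was 2.11 ± 0.53 on the log2 scale (edgeR adjusted p = 0.00813), and in chr10:60115719-60116162 1.87 ± 0.56 (0.0473), while 3 h against unstimulated gave adjusted p = 0.935 and 0.704. The call at chr10:60115719-60116162 was lost whichever of the 6 IFN-γ libraries was left out.

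Other rises had few or no tags in unstimulated cells. Enhancer chr7:45708566-45708712 (rise 7) had no tag before stimulation, 2 and 1 at 3 h, 12 and 17 at 9 h and 14 and 13 at 15 h. The late level was 9.03-fold above that at 3 h (95% counting interval 2.94 to 45.1; edgeR adjusted p = 0.0154). At chr15:74792522-74792841 (rise 14) the tags rose in steps, from 2 and 2 to 7 and 6 at 3 h, 25 and 31 at 9 h and 29 and 19 at 15 h (log2 change from 3 h 1.73 ± 0.43, edgeR adjusted p = 0.00813). Enhancer chr11:58850818-58851268 (rise 16) likewise went from 1 and 1 to 10 and 3, 32 and 23, and 22 and 21 (1.65 ± 0.44, edgeR adjusted p = 0.017). In both, no late library overlapped an early one. The 9 and 15 h levels overlapped at chr15:74792522-74792841. At chr11:58850818-58851268 the lower 9 h library lay just above the higher 15 h one, at 1.67 against 1.66 RPM. The 2 times did not differ there by the test (edgeR adjusted p = 0.974). These last 2 enhancers were chosen after their values were seen.

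The highest fitted rises had no tag at 3 h. Enhancer chr6:134097737-134098032 (rise 1) held no tag in either unstimulated or 3 h library and 6, 6, 8 and 6 in the 4 late ones (edgeR adjusted p = 0.0297). With a floor of 3 tags for the pooled 3 h libraries, the late level was at least 4.19-fold higher. Enhancer chr7:75438296-75438539 (rise 2) held 1 tag in the unstimulated libraries together, none at 3 h and 5, 5, 8 and 7 late (edgeR adjusted p = 0.0382), which with the same floor is at least 4.03-fold higher. Enhancer chr6:131240975-131241620 (rise 10) went from 0 and 1 tags to 1 and 3 at 3 h and to 12, 12, 10 and 13 late, 5.69-fold higher (edgeR adjusted p = 0.0456). The calls at chr6:131240975-131241620 and chr7:75438296-75438539 were lost whichever of the 6 IFN-γ libraries was left out. The last named rises overlapped between unstimulated cells, with 2 and 8 and 2 and 5 tags, and 3 h. At these, chr17:26656525-26656733 (rise 8) and chr2:38374668-38374939 (rise 9), 5 and 4 tags over the 3 h libraries stood against 9, 17, 23 and 16 and against 10, 20, 12 and 8 late, ratios of 6.29 and 6.05 (edgeR adjusted p = 0.0134 and 0.0418).

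Few differences were called between the 2 late times, which with 2 libraries at each does not show that they were alike. Between 15 and 9 h of IFN-γ, edgeR called 2 of 2792 enhancers (0.0716%; 1 higher and 1 lower, 0.0358% each; 179 at an unadjusted p under 0.05) and DESeq2 none (59). One was chr5:142804435-142804856, also called in the late against early comparison (rise 15), where its late and early libraries overlapped. Its tags were 19 and 19 in unstimulated cells, 8 and 3 at 3 h, 46 and 45 at 9 h and 15 and 5 at 15 h, so that it was high at 9 h only (15 against 9 h: log2 change -1.96 ± 0.39, edgeR adjusted p = 0.00104). The other, chr11:97200213-97200543, had a like course up to 3 h and the opposite step after 9 h, with 20 and 20, 8 and 3, 0 and 2, and 11 and 11 tags (15 against 9 h: 3.53 ± 0.78, edgeR adjusted p = 0.00934). No enhancer was called without the first 9 h or the second 15 h library, and 1 without either of the others. Taken alone against 3 h, the 9 h libraries gave 20 calls (0.716%; 7 higher, 0.251%, and 13 lower, 0.466%) and the 15 h libraries 29 (1.04%; 11 higher, 0.394%, and 18 lower, 0.645%), of which 19 and 27 were among the 52. With whole-library totals the 9 h libraries gave 16 calls, 14 higher and 2 lower, and the 15 h libraries 16, 7 higher and 9 lower.

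**Figure D3:**
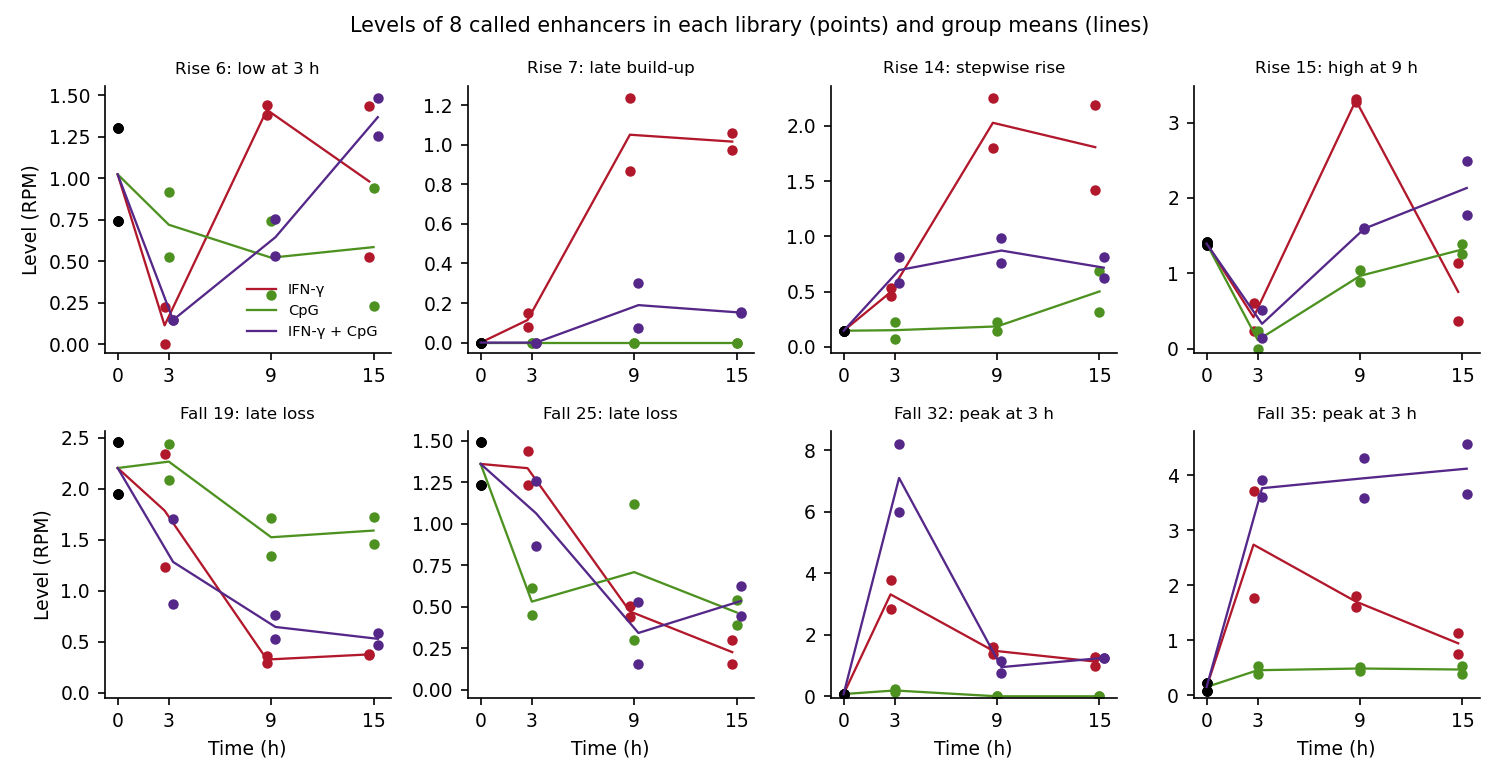
Level (RPM, vertical) over time (h, horizontal) of 8 called enhancers, chosen after their values were seen, with a point per library and lines through group means for IFN-γ (red), CpG (green) and both (violet); the unstimulated libraries are black and shared. Upper row: chr11:102319827-102320230 is low at 3 h, chr7:45708566-45708712 and chr15:74792522-74792841 build up with IFN-γ, and chr5:142804435-142804856 is high at 9 h with IFN-γ; lower row: chr13:49343340-49343837 and chr11:93885822-93886275 are lost late, and chr1:176651455-176651913 and chr5:121537641-121537963 peak at 3 h with IFN-γ.

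The libraries of the other stimuli share no library with the IFN-γ ones and show which of these courses recurred. CpG DNA is a ligand of TLR9, a receptor of the endosome that signals through MyD88 to NF-κB. The labels' protocol names the oligonucleotide used in stimulation experiments, shown because its CG dinucleotides, in capitals, are what the receptor reads.
CpG ODN-1826: tccatgaCGttcctgaCGtt
With IFN-γ plus CpG, 337 of 2792 enhancers (12.1%) differed between late and early, 124 higher (4.44%) and 213 lower (7.63%). Of the 52 enhancers of IFN-γ alone, 12 were called there in the same direction and none in the opposite one: 3 of the 16 rises (18.8%, and 2.42% of the 124) and 9 of the 36 falls (25%, and 4.23% of the 213). With CpG alone 29 enhancers (1.04%) were called, 13 higher (0.466%) and 16 lower (0.573%), or 21 and 7 with whole-library totals, and 3 of the 52 were among them, all in the same direction.

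At chr1:176651455-176651913 the peak at 3 h was higher with both stimuli and the fall was seen in both series of libraries. With IFN-γ plus CpG it held 83 and 111 tags at 3 h, 15 and 10 at 9 h and 17 and 16 at 15 h (log2 change -2.56 ± 0.26, edgeR adjusted p = 3.60e-19). The late level with both stimuli thus came near that with IFN-γ alone, at 1.25 ± 0.00445 against 1.13 ± 0.221 RPM at 15 h (SD, n = 2 each). With CpG alone it held 2 and 3 tags at 3 h and none later. Enhancer chr10:12839072-12839363 fell from 3 h with each of the 3 treatments: by 2.05 ± 0.44 on the log2 scale with IFN-γ, by 2.00 ± 0.40 with both (edgeR adjusted p = 6.39e-05) and by 2.66 ± 0.58 with CpG (0.00172). Enhancer chr5:142804435-142804856 rose with each, by 1.70 ± 0.46, 2.58 ± 0.45 (edgeR adjusted p = 2.37e-06) and 3.00 ± 0.64 (0.00145), from a 3 h level below that of unstimulated cells in all 6 libraries. Enhancer chr2:34852947-34853396 was the third of the 52 that was called with CpG alone (log2 change -1.61 ± 0.45, edgeR adjusted p = 0.0393).

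The low 3 h level at chr11:102319827-102320230 was also seen with both stimuli, with 2 and 2 tags at 3 h, 10 and 7 at 9 h and 17 and 19 at 15 h (log2 change 2.73 ± 0.62, edgeR adjusted p = 6.82e-04). The late build-up at chr7:45708566-45708712 was weak there, with 0 and 0, 4 and 1, and 2 and 2 tags, and no tag was found in any of the 6 CpG libraries. At chr13:49343340-49343837, where IFN-γ alone left 4 or 5 tags per late library, the counts with CpG were 28 and 32 at 3 h, 23 and 18 at 9 h and 19 and 22 at 15 h. With both stimuli they were 12 and 23, 7 and 10, and 8 and 6. Its late change with CpG or with both did not pass the test (edgeR adjusted p = 0.205 and 0.082), and the changes of the treatments were not called different from that with IFN-γ.

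**Figure D4:**
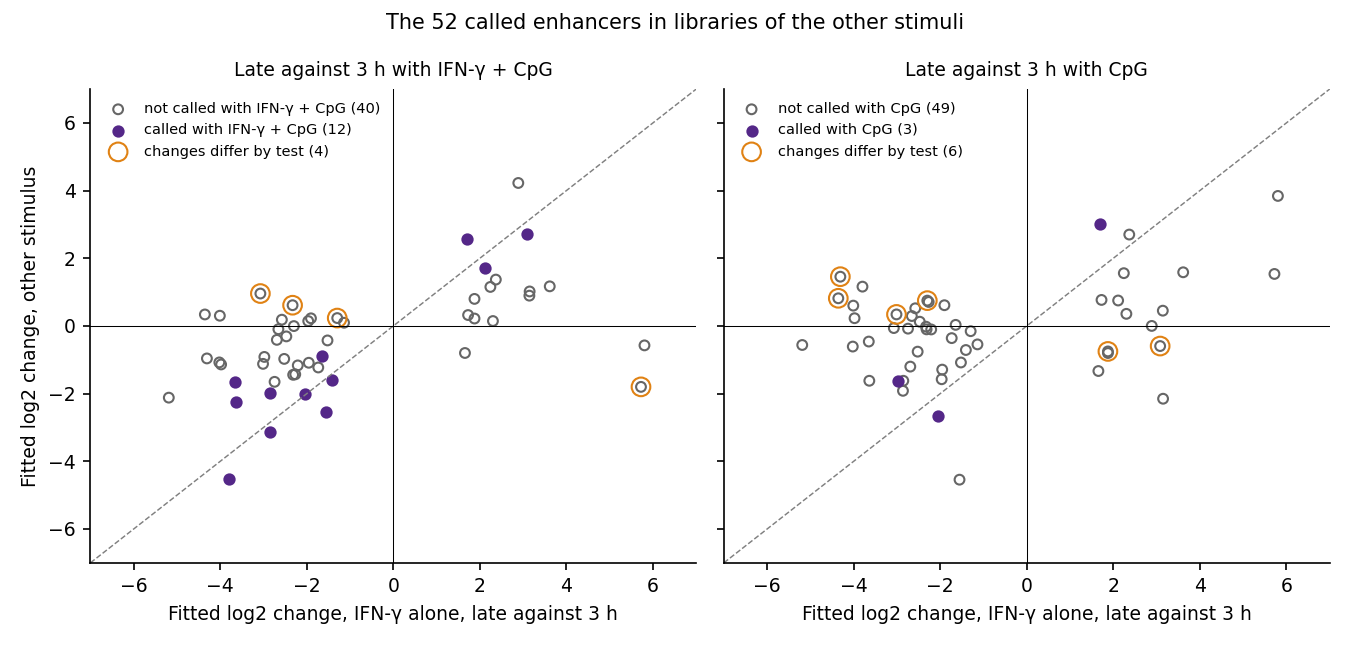
Fitted log2 change from 3 h to late with IFN-γ plus CpG (left) and CpG alone (right), vertical, against that with IFN-γ alone, horizontal, for the 52 called enhancers; the dashed line marks equal changes. Filled points, 12 on the left and 3 on the right, were called with the other treatment too and lie on the same side of 0, and rings mark the 4 and 6 enhancers whose changes differed by test.

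The test of the difference between the changes with IFN-γ and with CpG alone called 12 enhancers (0.430%), 4 with a higher (0.143%) and 8 with a lower (0.287%) late against early change under IFN-γ, or 10 with whole-library totals (3 higher, 7 lower). DESeq2 called none (142 at an unadjusted p under 0.05 against 307 with edgeR), and with 1 of the 12 libraries left out edgeR called 11 without the first CpG 9 h library, 12 without the second IFN-γ 15 h library and 0 to 7 without each of the others. Enhancer chr11:102319827-102320230 differed by 3.68 ± 0.85 on the log2 scale (edgeR adjusted p = 0.0105), since it held 7 and 12 tags with CpG at 3 h and 10, 4, 3 and 12 later. Enhancer chr12:3906041-3906465 held 5 and 1 tags at 3 h of IFN-γ and 6, 15, 12 and 9 later, against 13 and 5 and then 4, 4, 3 and 2 with CpG (difference 3.21 ± 0.84, edgeR adjusted p = 0.0371, and 0.0669 with whole-library totals, where the call was lost). At chr10:51331853-51332295 IFN-γ gave 6 and 3 tags at 3 h and 5, 16, 11 and 10 later, and CpG 11 and 16 and then 5, 3, 1 and 7 (difference 2.88 ± 0.72, edgeR adjusted p = 0.0242). In these 2 the change with IFN-γ did not pass the test by itself (edgeR adjusted p = 0.194 and 0.371).

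In the other direction the largest fitted differences again rested on few tags. At chr12:85579654-85580235 the CpG libraries held 3 and 2 tags at 3 h and 8, 10, 3 and 3 later, while the late IFN-γ libraries held 2 in all (edgeR adjusted p of the difference 0.0313). Enhancers chr16:8485222-8485415, with 1 and 2 tags with CpG at 3 h and 1, 9, 5 and 5 later, and chr6:31101860-31102068, with none and then 8, 1, 3 and 3, also differed (edgeR adjusted p = 0.0313 and 0.0492). At chr6:31101860-31102068 IFN-γ gave 7 and 6 tags at 3 h and 1, 3, 2 and 2 later, and the call was lost with whole-library totals (adjusted p = 0.0667). An enhancer with more tags was chr4:141600258-141600694, chosen after its values were seen: 18 and 12 tags at 3 h of IFN-γ and 7, 18, 7 and 9 later, against 14 and 11 and then 49, 38, 38 and 29 with CpG (difference -2.22 ± 0.52, edgeR adjusted p = 0.0105). The lowest adjusted p of the 12 was at chr9:7871545-7872319, also chosen after its values were seen. IFN-γ gave 10 and 6 tags at 3 h and 4, 7, 1 and 3 later. CpG gave 4 and 2 and then 20, 18, 22 and 18 (difference -3.93 ± 0.82, edgeR adjusted p = 0.00452).

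Against IFN-γ plus CpG the test of the difference called 16 enhancers (0.573%), 12 higher (0.430%) and 4 lower (0.143%) under IFN-γ alone. DESeq2 called none (166 at an unadjusted p under 0.05 against 355 with edgeR). Of the 12 libraries, leaving out any 1 gave 5 to 15 calls, with 5 without the first IFN-γ 3 h library and 7 without the first 3 h library of both stimuli. With whole-library totals 21 were called, 19 higher and 2 lower, which moved the share of higher changes from 75.0% to 90.5% of the calls and the median difference of all tested enhancers from 0.10 to 0.41. The 3 named enhancers with a higher change had few tags: chr2:90927945-90928380 was without a tag at 3 h of IFN-γ, with 5, 2, 1 and 7 later, against 6 and 4 and then 0, 0, 1 and 2 with both stimuli (edgeR adjusted p = 0.0201). Enhancer chr7:75438296-75438539 held 6 and 7 tags with both stimuli at 3 h, where IFN-γ alone had none (edgeR adjusted p = 0.0174). At chr3:121123880-121124248 both stimuli gave 12 and 14 tags at 3 h and 0, 0, 1 and 0 later, and IFN-γ alone 1 and 2 and then 4, 8, 2 and 4 (edgeR adjusted p = 0.00219). The lowest edgeR adjusted p, 4.95e-04 at each, was at chr2:48584475-48584861 and chr5:92109227-92109609, chosen after their values were seen. With both stimuli they held 18 and 21 and 19 and 23 tags at 3 h, and 1, 0, 2 and 0 and 1, 0, 6 and 5 later. Their late against early change with IFN-γ alone did not pass the test (edgeR adjusted p = 0.949 and 0.725).

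The 4 enhancers with a lower change under IFN-γ alone included one with many tags. Enhancer chr5:121537641-121537963 fell from its 3 h peak with IFN-γ alone, whereas with both stimuli it held 50 and 53 tags at 3 h, 57 and 47 at 9 h and 62 and 47 at 15 h. The changes differed by -1.53 ± 0.38 on the log2 scale (edgeR adjusted p = 0.0174), and with whole-library totals by -1.21 (adjusted p = 0.148), where the call was lost. At chr4:141600258-141600694 both stimuli gave 10 and 10 tags at 3 h and 32, 39, 26 and 23 later (difference -2.57 ± 0.54, edgeR adjusted p = 0.00121). The remaining 2 were chr7:15991755-15992283, with 7 and 11 tags and then 7, 15, 3 and 24 with both stimuli against 19 and 5 and then 0, 6, 1 and 4 with IFN-γ (-2.94 ± 0.69, edgeR adjusted p = 0.0068), and chr4:43472968-43473511, with 1 and 7 and then 8, 11, 2 and 8 with both (-4.03 ± 1.03, edgeR adjusted p = 0.0174). The call at chr4:43472968-43473511 was lost with whole-library totals (adjusted p = 0.0595).

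The 52 enhancers were spread over 15 chromosomes, with at most 6 on one (chromosome 6). They were 417.5 bases wide in the median, the falls 449 and the rises 315, against 372 over all tested enhancers. A tested neighbour within 50 kb was found for 35 of them, and the nearest one had a fitted change of the same sign in 28, where the share was 56.6% over the 1805 tested enhancers with such a neighbour. This is a description, since neighbours can share a transcript and their signs were not tested. Close to chr13:49343340-49343837, the enhancers chr13:49344274-49344577 and chr13:49345156-49345442 also held fewer tags late, with 5 and 5 and 5 and 1 at 3 h and 0, 0, 2 and 1 late in each, without passing the test (edgeR adjusted p = 0.0613 and 0.244). Near chr15:74792522-74792841, chr15:74802677-74803077 held 1 and 0 tags at 3 h and 4, 7, 10 and 4 late (edgeR adjusted p = 0.188). Opposite changes were called at chr5:142804435-142804856 and chr5:142914763-142915282, 110377 bases apart, of which the second fell from 30 and 19 tags at 3 h to 25 and 15 at 9 h and 11 and 6 at 15 h (log2 change -1.14 ± 0.34, edgeR adjusted p = 0.0456). Early and late libraries overlapped at this fall, which was called under 3 of 16 other settings. Another such pair, 168178 bases apart, was chr17:26656525-26656733, which rose, and chr17:26824508-26825105, which fell from 14 and 8 tags to 5, 1, 6 and 1 (-1.97 ± 0.56, edgeR adjusted p = 0.0283). With whole-library totals both falls were lost (adjusted p = 0.172 and 0.0887).

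**Figure D5:**
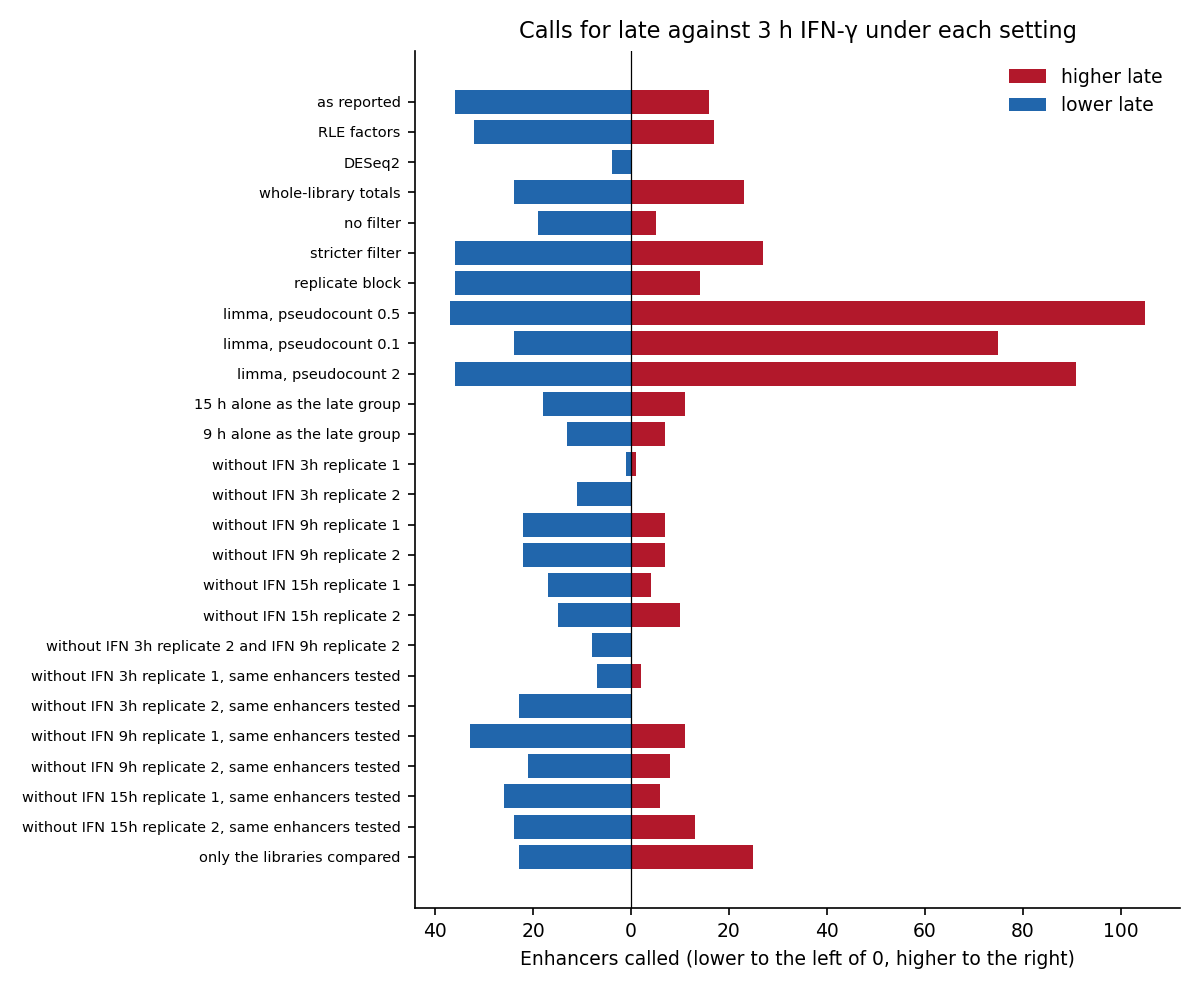
Number of enhancers called lower (blue, left) and higher (red, right) late than at 3 h with IFN-γ alone, as reported and under each alternative, with the fits that leave out a pair of libraries or keep the tested set added later. The count reaches from 2 without the first 3 h library to 142 with limma, and rises outnumber falls with limma and in the fit of the 6 libraries alone.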

How the data were processed

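Tags per enhancer were deposited by the authors as raw counts, and a second deposited table, which its name calls TPM, holds RPM, since dividing count by value gave the same library total for every enhancer of a column. The submitters' processing notes list Trimmomatic 0.38, FastQC 0.11.5, HISAT2 2.1.0, BWA 0.7.10 and the mm39 build; the enhancer caller is not given in the sources used here. Groups and replicate numbers came from the sample titles.

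Counts of all 20 libraries were fitted with edgeR 4.0.16 (R 4.3.3; quasi-likelihood F-test, robust, two-sided, TMM, 1 coefficient for each of 10 groups, 10 residual degrees of freedom). Late was the mean of the 9 and 15 h coefficients. filterByExpr (minimum count 5, minimum total 15) kept 2792 enhancers, holding 60.7% to 64.7% of the enhancer tags of the 6 libraries; p-values were adjusted over these by Benjamini-Hochberg and called under 0.05. The standard error is the log2 change divided by the square root of F. Ratios of levels compare the summed tags of a group, divided by its summed library totals. They are thus on the whole-library scale, unlike the TMM-scaled log2 changes. With 1 to 3 tags they carry an exact 95% interval, and with none a floor of 3 tags over the group, both for counting error only. Named enhancers were the 12 rises and 12 falls with the largest change among calls whose 4 late libraries lay beyond both early ones, with a mean of 5 tags on the higher side, and 3 each way in the other comparisons; others are marked. The rule's gene lists could not be used, since the annotation at hand is of GRCm38. The comparison, lists and tests were chosen with earlier results of these data known. The alternatives tried were whole-library totals, RLE factors, other filters, DESeq2 1.42.0, a replicate block, fits of the compared libraries, limma 3.58.1 on log2(RPM + 0.5, 0.1 or 2), single late times and leaving out libraries.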

Additional observations from a re-analysis of the deposited data

Results flagged for a closer look

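In 3 of 25 sets of the 4 late libraries tested (24 named enhancers and the share of enhancers in the library), 1 library stood apart by Dixon's criterion, which chance exceeds in about 1 of 20 sets. The second 9 h library held 0.179% of its tags in enhancers, against 0.125% to 0.133% in the other 3. At chr6:134097737-134098032 the first 15 h library stood at 0.605 RPM, above 0.433 to 0.449 in the others. At chr11:102319827-102320230 the second 15 h library stood at 0.524 RPM, below 1.38 to 1.44. At chr12:17557060-17557661 the first 9 h library, at 0.0722 RPM, was the only late one with a tag; 1 tag against 3 libraries at 0 meets the criterion by construction, so this set is not counted among the 3. These sets join the 9 and 15 h groups.

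The late against early change differed between IFN-γ and CpG at 12 enhancers by the test of the difference. The named ones were chr11:102319827-102320230 (log2 difference 3.68), chr12:3906041-3906465 (3.21), chr10:51331853-51332295 (2.88), chr12:85579654-85580235 (-5.17), chr16:8485222-8485415 (-5.76) and chr6:31101860-31102068 (-6.77). Between IFN-γ and IFN-γ plus CpG it differed at 16 enhancers, the named ones being chr2:90927945-90928380 (8.46), chr7:75438296-75438539 (7.52), chr3:121123880-121124248 (6.62), chr4:141600258-141600694 (-2.57), chr7:15991755-15992283 (-2.94) and chr4:43472968-43473511 (-4.03). Values beyond 5 in size involve a group without a tag and depend on the prior count.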

How the results depend on the processing

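Of the 52 enhancers called between late and early IFN-γ, edgeR kept 48 with RLE factors, 40 with whole-library totals and 50 with the replicate block (50 calls). No pairing by replicate number was seen (correlation of replicate differences between the 3 IFN-γ times -0.0119 to 0.00330), and the block left 2, 11 and 16 calls in the other comparisons. Replicates differed little beyond counting error (chi-square per degree of freedom 1.20 at 3 h, 1.15 at 9 h and 1.19 at 15 h). A pairing could therefore have been missed. Calls for late against early numbered 24 with no filter, 4 with DESeq2, 142, 99 and 127 with limma (pseudocounts 0.5, 0.1 and 2), 29 for 15 h alone and 20 for 9 h alone. Leaving out 1 library gave 2 to 29 calls, fewest without the first 3 h library and 11 without the second, with 4136 to 4238 enhancers passing the filter; with the same 2792 enhancers, an alternative added after the data were seen, it gave 9 and 23 (first and second 3 h library), 44 and 29 (9 h) and 32 and 37 (15 h). Without both the second 3 h and the second 9 h library, also added later, 8 were called. Groups left with 1 library are assumed to vary like the others. For 15 against 9 h, DESeq2 gave 0 calls, limma 10 and 17 (pseudocounts 0.5 and 2), and leaving out 1 library 0 to 1. For the difference from CpG the counts were 0 with DESeq2, 6 with no filter, 20 with the stricter filter, 22 with limma at each pseudocount, 4 without both libraries, and 0 to 12 with 1 left out. For the difference from both stimuli they were 0 with DESeq2, 8 with no filter, 26 with the stricter filter, 26 with the compared libraries alone, 164, 54 and 202 with limma, 9 without both libraries, and 5 to 15 with 1 left out. The cause of these shifts was not tested. The share of enhancers in the library stayed higher late, by 0.0098 to 0.0422 percentage points with 1 library left out. Of the tested enhancers, 1770 had a mean under 5 tags at 3 h and late, so that small changes were not detectable there.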

Other observations

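The 8430 enhancers with too few tags to be tested were read as a pool. They summed to 415 ± 70.7 RPM at 3 h of IFN-γ, 599 ± 149 at 9 h and 485 ± 34 at 15 h (SD, n = 2 each), against 591 ± 24.5 in unstimulated cells. The late libraries averaged 127 RPM more than the early ones (exact two-sided permutation test, p = 0.333, smallest possible p 0.0667). This difference was smaller than the gap between the 9 h replicates (493 and 704 RPM). It was larger than the gaps at 3 h (465 and 365 RPM) and 15 h (461 and 509 RPM).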
